A study of Mus musculus with 12 samples.

Results

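Chemokines and their receptors were examined in 12 RNA-seq libraries of mouse tibialis anterior, a muscle of the front of the lower leg. Genes were taken by symbol (Ccl, Cxcl, Ccr, Cxcr or Ackr with a number, plus Cx3cl1 and Cx3cr1) and kept if at least 2 libraries had 5 or more counts. Of 26264 genes in the count tables, 60 had such a symbol and 41 passed the minimum: 26 ligands, 11 receptors and 4 atypical receptors. Per the labels, 4 libraries came from muscle injected with 50 µl of a gel of tissue-derived extracellular matrix at 6 mg per ml, 4 from muscle injected with 50 µl of phosphate-buffered saline (PBS), and 4 from uninjured muscle. The gel went into the left leg and PBS into the right, so side and treatment cannot be told apart. The deposited names give gel and PBS libraries of the same number 1 animal number, and uninjured libraries other animal numbers and left legs. The sources used here do not give strain, age, kind of injury or time of collection.

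Chemokines are small secreted proteins that direct the migration of leukocytes. They are grouped by the spacing of their first cysteines into CC, CXC and CX3C families, and they act through G protein-coupled receptors on the migrating cell. In injured muscle, CCL2 and its receptor CCR2 are known for the recruitment of blood monocytes, the CXC ligands of CXCR2 for that of neutrophils, and CXCL12 for retention of CXCR4-bearing cells and for muscle progenitors. Atypical receptors bind chemokines without G protein signalling and take them up, transport them or buffer them.

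The libraries held 15626086 to 22182483 counts. Between 74.9% and 85.9% of values from 1 to 20 in a library were even numbers, so the 2 mates of a read pair may have been counted separately. The myofibre markers summed to 110000 to 185000 CPM (counts scaled by the library total times its TMM factor) in every library, which fits the labelled tissue. Among gel libraries, number 3 was unlike the rest: it lay at 5.39 on the first principal component of all genes (50.7% of variance) where these lay between -91.4 and -67.4. PBS libraries spanned 17.2 to 46.5 there. On the next component it was at -29.2, within the PBS range of -32.3 to -18.8. Whether its injection or its label differs cannot be told from these data, so every gel mean and fold includes a library that lay nearer to PBS on these components. For 27 of the 41 members it had the lowest gel value, and results are given with and without it where it changes a call. In bulk tissue, fewer cells of a type and less RNA per cell cannot be told apart.

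Gel-treated muscle had more RNA than PBS-treated muscle of inflammatory CC ligands (Ccl2, Ccl5, Ccl6, Ccl9), of Cxcl16 and of the monocyte receptor Ccr2. Of the abundant constitutive ligands, Cxcl12, Cxcl14 and Ccl11 did not pass the test and Ccl27a was higher, by 0.77 on the log2 scale. Both of 2 edgeR fits over all genes were read. The first kept genes with filterByExpr, which asks for enough counts in 4 libraries, and it tested 13499 genes, 23 of them members. Of these 23, 10 were higher in gel than in PBS and 0 were lower at an adjusted p under 0.05, where 16.6% of all genes tested were higher and 13.2% lower. At an unadjusted p under 0.05, 0 of the 23 were lower in edgeR, and DESeq2 and limma voom also called 0 lower. The median log2 fold change was 1.40 for the 23 members and 0.04 for all genes. Neither fit used the pairing of gel and PBS libraries by animal. With gel and PBS alone and the animal as a block, Ccl9 and Cxcl1 lost their calls. Cxcl9, Cxcl10 and Cx3cr1 were then called higher and Cxcl14 lower. The other, inclusive fit applied the members' own minimum to all genes, which brought in all 41 members among 15733 genes. There 18 of 41 were higher and 0 lower, beside 14.6% and 11.6% of all genes, with medians of 2.65 and 0.09. Members with few counts outside the gel group enter these fits only through that group, so the counts over them describe the table and are no evidence of a general rise. In the inclusive fit these include Ccl3, Ccl4, Ccl7, Cxcl2, Cxcl5 and Ccr1, whose own calls are to be read as descriptions too. Members outside the first fit are given from the inclusive one.

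**Figure D1:**
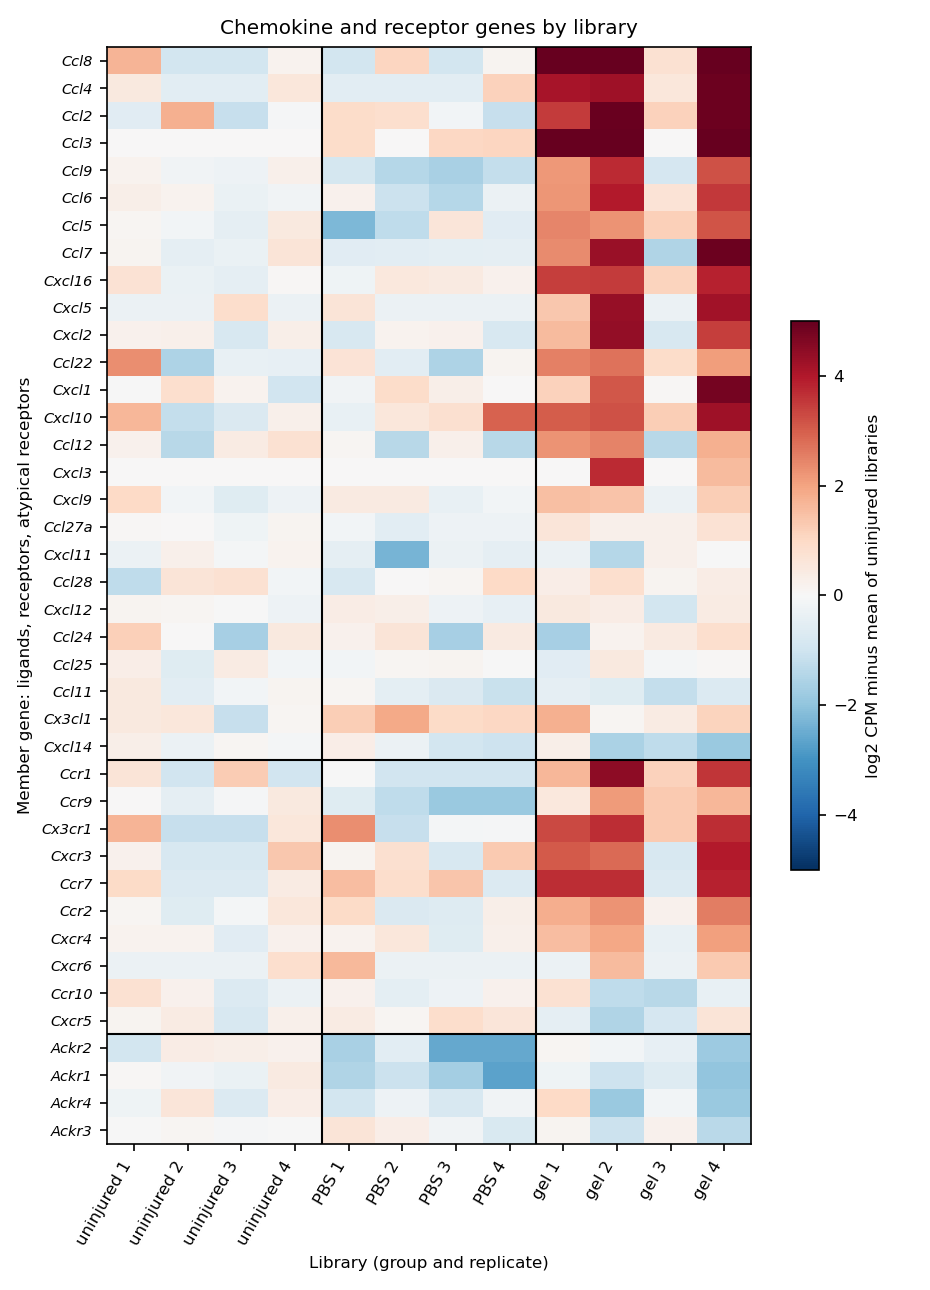
Each row is 1 of 40 members and each column 1 library; colour is log2 CPM (prior count 2) minus the mean of the 4 uninjured libraries, cut at -5 and 5, with lines between groups and between ligands, receptors and atypical receptors. Gel libraries 1, 2 and 4 are red in the upper rows of ligands and receptors, and gel library 3 is pale or blue in most of these rows.

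Of Ccl2, Ccl7, Ccl8 and Ccl12, 3 were higher in gel than PBS in the inclusive fit, beside 14.6% of all genes. Ccl11, which lies among them on chromosome 11, was not called. Ccl2, the main monocyte attractant, was at 2.68, 7.47, 0.427 and 7.21 CPM in gel libraries 1 to 4, at 0.346, 0.326, 0.114 and 0 CPM in PBS libraries and at 0.0568, 0.72, 0 and 0.127 CPM in uninjured libraries. All gel libraries lay above all PBS libraries, with gel library 3 close to them, and the log2 fold change over PBS was 4.42 ± 1.01 (SE, adjusted p = 0.00704 in edgeR). This call was lost in limma voom (adjusted p = 0.0675). Ccl7, another CCR2 ligand, was at 1.48, 6.01, 0 and 9.25 CPM in gel and at 0.12 CPM or lower in PBS libraries. Ccl8 was at 7.63, 7.10, 0.244 and 6.84 CPM in gel and at 0, 0.326, 0 and 0.12 CPM in PBS. Gel library 3 had no count of Ccl7, below every PBS library, and lay within the PBS range for Ccl8, while the other 3 gel libraries were above it in both genes. The inclusive fit gave log2 fold changes of 5.16 ± 1.14 for Ccl7 and 5.52 ± 1.21 for Ccl8 (adjusted p = 0.00713 and 0.00765). Both calls were lost in limma voom on the same genes (0.204 and 0.0789). Ccl12, a mouse relative of Ccl2, was at 1.25, 1.51, 0 and 0.874 CPM in gel and at most 0.229 CPM in PBS, and did not pass (2.98 ± 1.11, adjusted p = 0.0564). It did without gel library 3 (adjusted p = 0.0059) and in DESeq2 (0.0419).

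**Figure D2:**
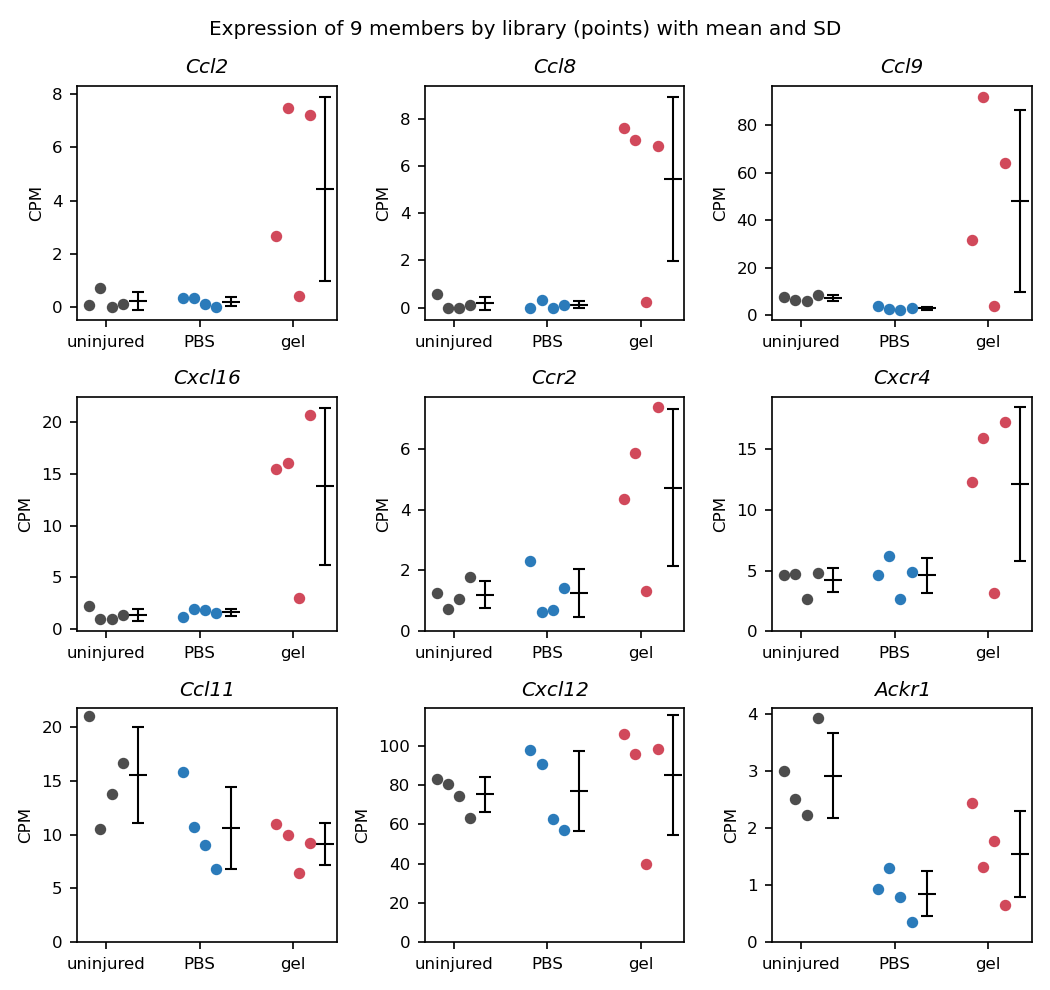
CPM of 9 members in each library (points) for uninjured, PBS and gel muscle, with the mean and SD of 4 libraries beside them; axes differ between panels. In Ccl2, Ccl8, Ccl9, Cxcl16, Ccr2 and Cxcr4, 3 gel libraries lie far above the rest and gel library 3 near the PBS libraries, and Ackr1 is highest in uninjured muscle.

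CCR1 ligands and further CC ligands followed the same division of the gel libraries. Ccl9, a CCR1 ligand of myeloid cells, was at 31.8, 92.1, 3.78 and 64.0 CPM in gel, at 3.75, 2.50, 2.18 and 3.00 CPM in PBS and at 7.73, 6.12, 5.81 and 8.36 CPM in uninjured muscle. Gel library 3 was thus just above the highest PBS library and below every uninjured library. Its log2 fold change over PBS was 4.06 ± 0.76 (adjusted p = 0.00437), which missed the threshold when the animal was a block (0.0579). Ccl6, its close relative, was at 17.0, 56.5, 5.74 and 42.1 CPM in gel against 4.15, 1.63, 1.26 and 2.88 CPM in PBS, with no overlap, and rose by 3.6 ± 0.66 (adjusted p = 0.0039). Ccl5, which attracts T cells and monocytes, was at 2.73, 2.37, 1.10 and 4.51 CPM in gel and at 0, 0.109, 0.687 and 0.24 CPM in PBS, again without overlap, and rose by 3.38 ± 0.69 (adjusted p = 0.00344). Of the named members, Ccl6 and Ccl5 are among those that kept their gel-over-PBS call under every alternative run. Ccl3 and Ccl4, the macrophage inflammatory proteins, were nearly undetected outside the gel group. Ccl3 had 382 counts in gel, 6 in PBS and 0 in uninjured libraries, and was at 4.33, 5.01, 0 and 7.28 CPM in the 4 gel libraries. Ccl4 had 235 counts in gel and 4 in PBS, and was at 2.62, 2.84, 0.122 and 4.62 CPM in gel. The inclusive fit gave 5.53 ± 1.29 for Ccl3 and 5.34 ± 1.12 for Ccl4 (adjusted p = 0.0152 and 0.00441), and the call of Ccl3 was lost in limma voom (0.185). Over uninjured muscle, the lower exact 95% bound of the Ccl3 ratio was 40.3 on halved counts. This bound and the exact bounds below cover counting error only and not the spread between libraries.

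CXC ligands of CXCR2, which draw neutrophils, were high in gel libraries 2 and 4. Cxcl1 was at 0.911, 3.88, 0.366 and 12.7 CPM in gel and at 0.296, 0.761, 0.458 and 0.36 CPM in PBS, so that the groups overlapped through gel library 3. Its log2 fold change was 3.26 ± 0.91 (adjusted p = 0.0192). It did not pass in limma voom (0.142), when only the 2 groups were fitted (0.0565), when the animal was a block (0.066), or without gel library 4 (0.0784), PBS library 1 (0.0524) or PBS library 3 (0.0521). Cxcl2 was at 0.456, 3.88, 0 and 1.97 CPM in gel and at 0.114 CPM or lower in PBS (4.66 ± 1.21 in the inclusive fit, adjusted p = 0.0113, and 0.133 in limma voom). Cxcl5 was at 0.228, 2.65, 0 and 2.33 CPM in gel and at 0.0987, 0, 0 and 0 CPM in PBS, with gel library 3 inside the PBS range. It had 124 counts in gel and 2 in PBS, 54.7 times the PBS level, with 95% exact bounds of 9.45 and 2190 on halved counts. Its call (adjusted p = 0.0124 in the inclusive fit) was lost in DESeq2 (0.0561) and limma voom (0.112). Cxcl3 had 34 counts, all in gel libraries 2 and 4, and 0 in the other groups. The lower exact 95% bound of its ratio over PBS was 3.64 on halved counts, and the test did not pass (adjusted p = 0.0763).

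Promoters are shown for Cxcl1 and Cxcl2, neighbours on chromosome 5 that were both called higher in gel than PBS in the inclusive fit. Those of Ccl9, which had the highest mean CPM of the CC ligands in gel, and of Cxcl10, which was not called over PBS, are added. All those printed hold a match to a motif, and promoters without one, such as those of Ccl6, Ccl8, Ccl3, Ccr1 and Ccr2, are not printed. RefSeq's table for GRCm38.p6, another build than that of the alignment, held promoters for 28 of the 41 members, each of 250 bases before and 50 after the start site. Capitals mark matches to GGGNNTTNCC, a short form of the NF-kappaB site, or GAAANNGAAA, a short form of the interferon-stimulated response element, on either strand. 
Ccl9, chr11:83578587-83578886, minus strand: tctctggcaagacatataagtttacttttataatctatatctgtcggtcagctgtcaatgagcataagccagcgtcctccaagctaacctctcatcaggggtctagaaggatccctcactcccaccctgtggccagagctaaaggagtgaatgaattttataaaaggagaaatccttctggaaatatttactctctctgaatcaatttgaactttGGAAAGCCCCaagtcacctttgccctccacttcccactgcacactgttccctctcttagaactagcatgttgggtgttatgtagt
Cxcl1, chr5:90890995-90891294, plus strand: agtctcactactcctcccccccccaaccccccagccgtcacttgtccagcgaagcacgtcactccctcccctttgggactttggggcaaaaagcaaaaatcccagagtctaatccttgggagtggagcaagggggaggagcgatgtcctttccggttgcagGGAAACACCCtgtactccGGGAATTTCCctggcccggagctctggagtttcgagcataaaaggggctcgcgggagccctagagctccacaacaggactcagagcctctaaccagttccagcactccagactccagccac
Cxcl2, chr5:90903649-90903948, plus strand: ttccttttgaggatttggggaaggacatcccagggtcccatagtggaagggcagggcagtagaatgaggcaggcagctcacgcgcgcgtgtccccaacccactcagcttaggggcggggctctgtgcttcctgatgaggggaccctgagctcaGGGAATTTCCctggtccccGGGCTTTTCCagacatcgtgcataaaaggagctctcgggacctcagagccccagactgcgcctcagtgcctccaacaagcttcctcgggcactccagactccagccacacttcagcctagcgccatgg
Cxcl10, chr5:92348840-92349139, minus strand: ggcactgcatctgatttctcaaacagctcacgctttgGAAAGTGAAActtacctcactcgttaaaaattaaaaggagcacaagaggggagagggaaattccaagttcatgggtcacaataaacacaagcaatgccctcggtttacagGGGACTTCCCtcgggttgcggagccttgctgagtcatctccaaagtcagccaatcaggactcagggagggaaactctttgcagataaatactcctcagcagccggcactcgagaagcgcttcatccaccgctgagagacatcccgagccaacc
The NF-kappaB form was found in 6 of 28 member promoters (21.4%) and in 4.71% of 27025 promoters of the same length. It stood in those of Ccl9, Cxcl1, Cxcl2, Cxcl3, Cxcl9 and Cxcl10, with 2 matches each in Cxcl1 and Cxcl2. Of 18 members called higher in gel than PBS in the inclusive fit, 11 had a promoter to search, and 3 of these 11 held it. Members without one included Ccl2, Ccl4, Ccl5, Ccl7, Cxcl5 and Cxcl16. The interferon form was found in 2 of 28 (7.14%, Cxcl10 and Cxcl14) and in 3.49% of all promoters, and in 0 of those 11. A match describes letters and is not evidence of binding.

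CXCL16, a transmembrane chemokine and scavenger receptor of macrophages, gave the smallest p of all members. Cxcl16 was at 15.5, 16.0, 2.99 and 20.7 CPM in gel, at 1.14, 1.96, 1.83 and 1.56 CPM in PBS and at 2.22, 1.02, 0.946 and 1.39 CPM in uninjured muscle. No gel library overlapped either group, and the log2 fold change over PBS was 3.09 ± 0.48 (adjusted p = 0.00189), a call kept under every alternative run. An opposite-strand gene, Zmynd15, overlaps its exons and was higher too (2.81 ± 0.47), and without a stated strand setting their reads cannot be told apart. Ccl22, a ligand of CCR4 made by dendritic cells and macrophages, was at 1.71, 1.99, 0.488 and 1.24 CPM in gel and at 0.395, 0.109, 0 and 0.24 CPM in PBS. In uninjured muscle it was at 1.48, 0, 0.135 and 0.127 CPM. Over PBS it passed narrowly (2.80 ± 0.98, adjusted p = 0.0431) and lost its call without gel library 1 (0.0775), 2 (0.0995) or 4 (0.0776), without PBS library 2 (0.105), 3 (0.0977) or 4 (0.0743), and in the inclusive fit (0.0518) or with no filter (0.0574). Over uninjured muscle Ccl22 was not called (1.60 ± 0.89, adjusted p = 0.205, and 0.0124 without uninjured library 1).

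Interferon-inducible ligands of CXCR3 did not pass between gel and PBS in either edgeR fit, neither of which used the pairing by animal. Cxcl9 was at 12.1, 11.4, 3.42 and 10.1 CPM in gel and at 5.73, 5.76, 3.21 and 3.84 CPM in PBS (1.00 ± 0.40, adjusted p = 0.0771). It passed without gel library 3 (0.0044), without uninjured library 1 (0.0398), with the animal as a block (0.0255) and in DESeq2 (0.0416). Cxcl10 was at 4.10, 4.54, 1.10 and 9.61 CPM in gel and at 0.296, 0.653, 0.801 and 3.84 CPM in PBS (1.82 ± 0.85, adjusted p = 0.125). PBS library 4 was high, and without it Cxcl10 passed (0.019), as it did with the block (0.0207). Exons of Cxcl10 overlap the opposite-strand gene Art3, which had 147 CPM in PBS and 85.8 CPM in gel muscle, so some of these reads may belong to it. Cxcl11 stayed at or below 0.549 CPM in all libraries.

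Of the constitutive ligands, Cxcl12, Cxcl14, Ccl27a and Ccl11 had the highest mean CPM of all members in uninjured muscle. Cxcl12, the stromal ligand of CXCR4, was at 106, 95.7, 40.0 and 98.4 CPM in gel, at 97.8, 90.7, 62.8 and 56.9 CPM in PBS and at 82.9, 80.6, 74.5 and 63.2 CPM in uninjured muscle. Gel library 3 was the lowest of all 12, and the fold change over PBS was 0.14 ± 0.26 (adjusted p = 0.716). Cxcl14, a ligand of skin and fibroblasts, was at 57.4, 15.7, 19.4 and 12.7 CPM in gel and at 59.5, 38.0, 24.6 and 22.6 CPM in PBS. Library 1 was the highest of its group in both, and 3 gel libraries lay below all PBS libraries. The log2 fold change of -0.47 ± 0.48 (adjusted p = 0.494) passed as lower with the animal as a block (0.0473) and without gel library 1 (0.0219). Ccl11, the eosinophil attractant eotaxin, was at 11, 9.93, 6.47 and 9.18 CPM in gel and at 15.8, 10.7, 9.04 and 6.84 CPM in PBS (-0.21 ± 0.26, adjusted p = 0.568). Ccl27a, a ligand of CCR10 on skin-homing T cells, was the 1 constitutive ligand that rose: it was at 32.3, 24.9, 25.2 and 35.4 CPM in gel against 19.2, 14.5, 17.5 and 17.6 CPM in PBS. The groups did not overlap, gel library 3 included, and the log2 fold change was 0.77 ± 0.14 (adjusted p = 0.00236), kept under every alternative. The opposite-strand gene Il11ra1 overlaps Ccl27a, with 0.28 ± 0.13 (adjusted p = 0.103), and reads of the 2 cannot be told apart. Cx3cl1, the membrane-bound fractalkine, was at 6.83, 2.08, 2.56 and 4.22 CPM in gel and at 4.59, 7.40, 3.78 and 4.08 CPM in PBS (-0.34 ± 0.40, adjusted p = 0.549). Ccl25, Ccl28 and Ccl24 stayed at or below 2.93 CPM, with adjusted p of at least 0.734.

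**Figure D3:**
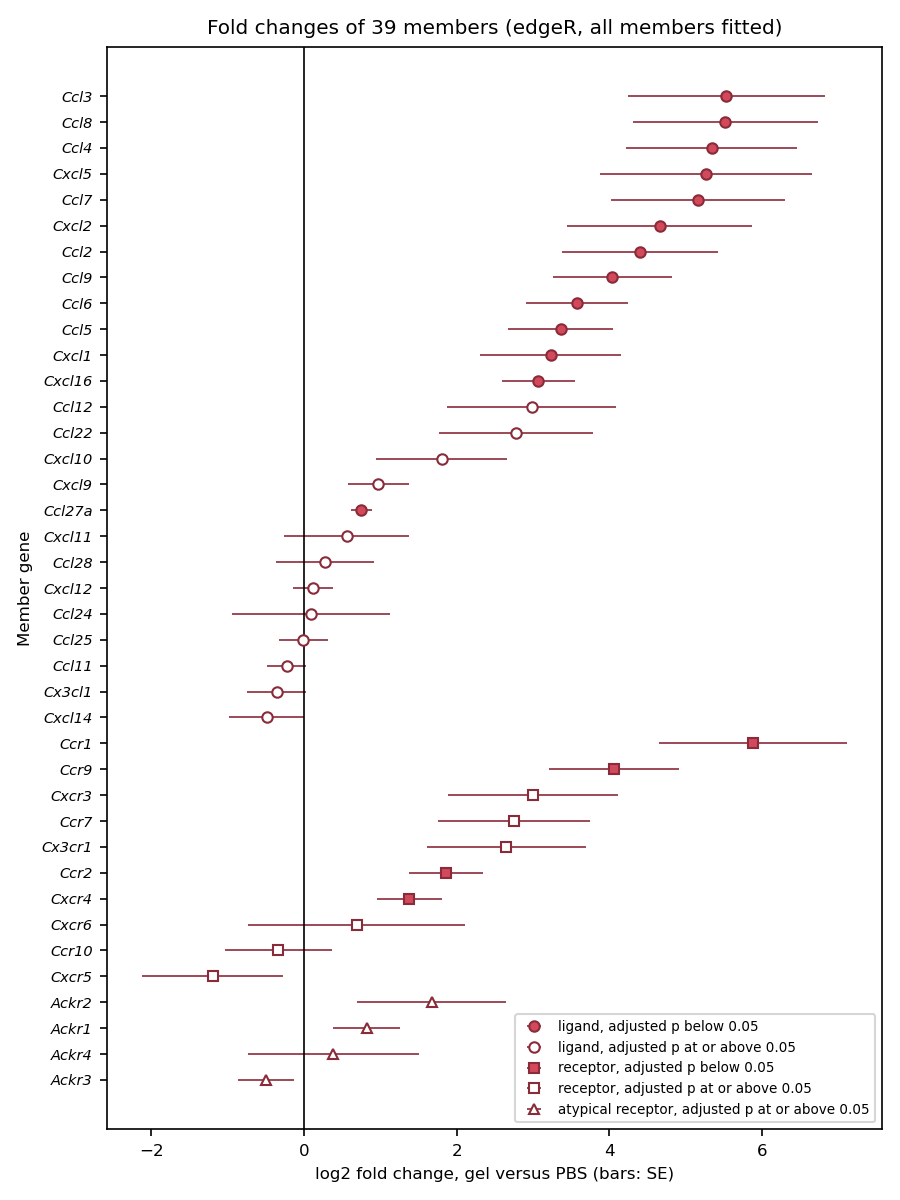
Log2 fold change of gel over PBS with SE for 39 members in the inclusive edgeR fit; circles are ligands, squares receptors, triangles atypical receptors, and filled symbols have an adjusted p under 0.05. Cxcl3, with 0 counts in PBS, is left out, and values of Ccr1 and Cxcl5, each with 2 counts in PBS, depend on the model's prior count; 17 symbols are filled, all to the right of 0.

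Among receptors, Ccr2, Ccr1, Ccr9 and Cxcr4 were higher in gel than in PBS, and those of Cxcl16 and Ccl27a were not called. Ccr2, which marks classical monocytes, was at 4.33, 5.87, 1.34 and 7.35 CPM in gel and at 2.32, 0.653, 0.687 and 1.44 CPM in PBS. Gel library 3 lay inside the PBS range, and the log2 fold change was 1.88 ± 0.50 (adjusted p = 0.012), kept under every alternative. Ccr1, the receptor of Ccl6 and Ccl9, had 180 counts in gel and 2 in PBS, a ratio of 79.3 with an interval of 13.9 to 3170 (adjusted p = 0.00416 in the inclusive fit). It was at 0.569, 4.64, 0.366 and 2.40 CPM in gel, above all PBS libraries, and met the minimum of that fit only with its gel libraries. Cxcr4, the receptor of CXCL12 on leukocytes and progenitors, was at 12.3, 15.9, 3.17 and 17.2 CPM in gel and at 4.64, 6.2, 2.63 and 4.92 CPM in PBS (1.40 ± 0.42, adjusted p = 0.0239). It did not pass in limma voom (0.0627), when only the 2 groups were fitted (0.063), or when gel library 2 (0.0646), gel library 4 (0.0788), PBS library 1 (0.0517) or PBS library 3 (0.0667) was left out.

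Ccr9, a gut-homing receptor of CCL25, was at 0.456, 1.61, 0.855 and 1.13 CPM in gel, with no overlap with PBS (0.148, 0.0544, 0 and 0 CPM), and gel library 3 was not the lowest here. The inclusive fit gave 4.06 ± 0.85 over PBS (adjusted p = 0.00365) on 87 counts in gel and 4 in PBS. Uninjured libraries, at 0.284, 0.18, 0.27 and 0.443 CPM, lay between PBS and gel. Gel over uninjured was not called (1.75 ± 0.71, adjusted p = 0.0828, and 0.0465 in DESeq2), nor was PBS over uninjured (-2.31 ± 0.89, adjusted p = 0.151). Exons of Ccr9 overlap Slc6a20a, with 6 counts in all, and the uncounted Gm17200 and AC165425.1, so reads may be shared. Cx3cr1, the fractalkine receptor of patrolling monocytes and macrophages, was at 2.28, 3.03, 0.488 and 2.99 CPM in gel and at 1.09, 0, 0.114 and 0.12 CPM in PBS (2.67 ± 1.00, adjusted p = 0.0592). It passed without gel library 3 (0.0205), without PBS library 1 (0.0122), with the block (0.0347), with halved counts (0.0306) and in limma voom (0.037). Ccr7, the lymph node homing receptor, was at 2.16, 2.18, 0 and 2.40 CPM in gel and at 0.395 CPM or lower in PBS (2.75 ± 1.00, adjusted p = 0.0545, 0.00133 without gel library 3 and 0.037 in DESeq2). Cxcr3, the receptor of Cxcl9 and Cxcl10, was at 1.48, 1.23, 0 and 2.84 CPM in gel and at 0.36 CPM or lower in PBS (3.00 ± 1.11, adjusted p = 0.0567, 0.00285 without gel library 3, 0.0153 with the block and 0.0407 in DESeq2). Cxcr6, the receptor of CXCL16, was at 0, 0.284, 0 and 0.218 CPM in gel and at 0.296, 0, 0 and 0 CPM in PBS (0.69 on the log2 scale, adjusted p = 0.755). Ccr10, a receptor of CCL27 and CCL28, was at 0.911, 0.142, 0.122 and 0.364 CPM in gel and at 0.592, 0.326, 0.401 and 0.6 CPM in PBS (-0.33, adjusted p = 0.734). The groups overlapped in both, and Cxcr5 stayed at or below 0.458 CPM. Cxcr2, the receptor of Cxcl1, Cxcl2 and Cxcl5, missed the minimum, with 16 counts in gel and 4 in each of the other groups.

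Across all 41 members, gel and PBS libraries did not overlap for 9, all higher in gel, beside 10.3% of all genes in the inclusive fit. These were Ccl2, Ccl5, Ccl6, Ccl9, Ccl22, Ccl27a, Cxcl16, Ccr1 and Ccr9.

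Neighbouring genes can be compared in RefSeq's gene order. On chromosome 11, Ccl2, Ccl7, Ccl11, Ccl12 and Ccl8 follow one another. Ccl2, Ccl7 and Ccl8 were higher in gel and Ccl12 did not pass, whereas Ccl11, between Ccl7 and Ccl12, had a log2 fold change of -0.23 in the inclusive fit (adjusted p = 0.536). Another run on this chromosome, Ccl5, Ccl9, Ccl6, Ccl3 and Ccl4, had 5 of 5 members higher, by 3.36 to 5.53. Of all genes in the inclusive fit, 14.6% were higher. Ccl3 and Ccl4 met the minimum only through gel libraries, so this count is no evidence about the run. On chromosome 9, Ccr9, Cxcr6, Ccr1 and Ccr2 lie in 1 run together with Ccr3, which had 6 counts in all. Of these, Ccr9, Ccr1 and Ccr2 were higher and Cxcr6 was not called (0.69, adjusted p = 0.755).

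**Figure D4:**
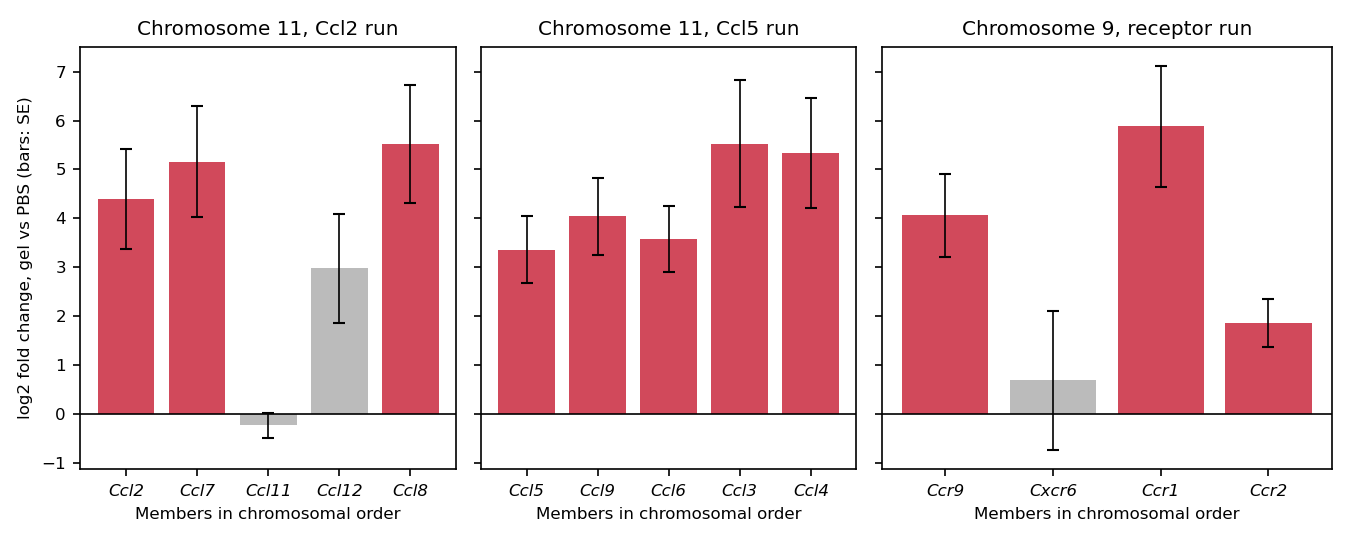
Log2 fold change of gel over PBS (inclusive edgeR fit, bars with SE) for members in 3 chromosomal runs, in gene order; red bars have an adjusted p under 0.05 and grey bars do not. Ccl11 is the 1 bar below 0, between risen Ccl7 and grey Ccl12.

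None of the 3 tested atypical receptors was called between gel and PBS. Ackr1, which carries chemokines across the endothelium of venules, was at 3.01, 2.52, 2.23 and 3.93 CPM in uninjured muscle, at 0.938, 1.31, 0.801 and 0.36 CPM in PBS and at 2.45, 1.32, 1.77 and 0.655 CPM in gel. PBS and uninjured libraries did not overlap, and Ackr1 fell by 1.76 ± 0.44 on the log2 scale (adjusted p = 0.0264). It was the 1 member of 23 called between PBS and uninjured muscle, with 0 higher, beside 3.39% of all genes lower and 2.79% higher. At an unadjusted p under 0.05, 1 member of 23 was higher (Cx3cl1) and 3 were lower (Ackr1, Ackr2 and Ccl27a). After adjustment, limma voom called 0 higher and DESeq2 1. In the inclusive fit it was again 1 lower and 0 higher of 41, beside 2.72% and 2.18%. The call was lost without PBS library 1 (0.0648), 3 (0.0639) or 4 (0.0561) and without uninjured library 1 (0.0582), 2 (0.0541) or 4 (0.094). Endothelial markers summed to 305 to 551 CPM in PBS and 370 to 461 CPM in uninjured libraries, with 0 of 8 called. Cadm3 overlaps Ackr1 on the same strand, so their reads may be shared. Ackr3, a scavenger of CXCL12, was at 16.4, 7, 17.1 and 5.86 CPM in gel and at 23.6, 18.6, 13.2 and 8.76 CPM in PBS (-0.48 ± 0.36, adjusted p = 0.336). Ackr2, a scavenger of inflammatory CC ligands, reached 0.72 CPM and Ackr4 0.683 CPM at most.

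Between PBS and uninjured muscle, 3 members did not overlap in the lower direction (Ackr1, Ccl9 and Ccr9) and 1 in the higher (Cx3cl1), beside 9.11% and 9.04% of all genes. Ccl9 was lower in every PBS library than in any uninjured one, at -1.29 ± 0.74 (adjusted p = 0.348). With the 2 groups alone, where gel libraries do not enter the spread, it passed (0.000531), and also without gel library 3 (0.0259). Cx3cl1 was at 4.59, 7.40, 3.78 and 4.08 CPM in PBS and at 2.73, 2.88, 0.811 and 2.03 CPM in uninjured muscle (1.22 ± 0.41, adjusted p = 0.0921). It passed with the 2 groups alone (0.014) and in DESeq2 (0.0374).

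Gel and uninjured muscle, a comparison that shares its gel libraries with that of gel and PBS, differed as follows. Of 23 members in the first fit, 11 were higher and 1 lower, beside 14.5% and 11.1% of all genes, and in the inclusive fit 20 of 41 were higher and 1 lower, beside 13.3% and 9.87%. Cxcl16 rose by 3.30 ± 0.49 (adjusted p = 0.000738), Ccl6 by 3.07 ± 0.64 (0.0067), Ccl5 by 2.63 ± 0.65 (0.00873) and Ccr2 by 1.97 ± 0.51 (0.0107), and these 4 calls held under every alternative. Ccl2 rose by 4.25 ± 1.00 (adjusted p = 0.00891, and 0.085 in limma voom). Ccl9 rose by 2.78 ± 0.70 (adjusted p = 0.0169) and the call was lost in limma voom (0.101) and without gel library 4 (0.0504). Ccl27a rose by 0.47 ± 0.14 (adjusted p = 0.0218), lost without gel library 4 (0.109) or uninjured library 2 (0.0515) or 3 (0.0763). Cxcr4 rose by 1.53 ± 0.42 (adjusted p = 0.0188), lost without gel library 2 (0.0535) or 4 (0.0618) or uninjured library 3 (0.0592) and in limma voom (0.07).

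4 calls over uninjured muscle rested on fewer libraries. Cxcl10 rose by 3.00 ± 0.92 (adjusted p = 0.0325) and Cx3cr1 by 3.16 ± 1.06 (adjusted p = 0.0428). Each lost its call without gel library 1 (0.0518 and 0.0693), 2 (0.06 and 0.0923) or 4 (0.0957 and 0.101) and without uninjured library 2 (0.0836 and 0.101), 3 (0.0883 and 0.101) or 4 (0.0817 and 0.0938). Without a filter on low counts neither passed (0.0689 and 0.0821), nor did Cxcl10 in limma voom (0.0549) or Cx3cr1 in DESeq2 (0.0723) and the inclusive fit (0.054). Cxcl1 rose by 3.48 ± 0.94 (adjusted p = 0.0176), lost without gel library 4 (0.0606) or uninjured library 1 (0.0515), 3 (0.0501) or 4 (0.0521), in limma voom (0.154) and with the 2 groups alone (0.0512). Ccl11 was the member that fell, by 0.76 ± 0.26 (adjusted p = 0.044), from 21.0, 10.5, 13.8 and 16.6 CPM in uninjured muscle, with overlap. Its call was lost without gel library 2 (0.0641), 3 (0.0736) or 4 (0.0779), PBS library 2 (0.0586) or 3 (0.0523), uninjured library 1 (0.139), 3 (0.067) or 4 (0.0948), and in limma voom (0.0569). In the inclusive fit Ccr7 (4.10 ± 1.14, adjusted p = 0.0182) and Cxcr3 (3.42 ± 1.16, adjusted p = 0.0449) also passed over uninjured muscle. Ccr7 lost its call without uninjured library 2 (0.0549) or 3 (0.0556), and Cxcr3 without any 1 of 9 libraries, gel library 4 (0.147) among them, and limma voom called neither (0.179 and 0.19). Gel and uninjured libraries did not overlap for 5 members, all higher in gel (Ccl5, Ccl6, Ccl27a, Cxcl16 and Ccr9), beside 10.9% of all genes.

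Levels were also put on a scale per length, as CPM per kilobase of exon in the GENCODE M21 annotation of GRCm38. The length joined all annotated exons of a gene, 8.18 kb for Cxcl12 and 1.83 kb for Cxcl14, and the order depends on it. By mean CPM Cxcl12 was above Cxcl14 in uninjured muscle, at 75.3 against 47.2. On the scale per length Cxcl14 led there with 25.8 ± 4.46 (SD, n = 4), then Ccl11 with 14.3 ± 4.12, Cxcl12 with 9.21 ± 1.08, Ccl27a with 8.92 ± 0.857 and Ackr3 with 4.46 ± 0.212. Cxcl12 and Ccl27a differed by less than their spread. Cxcr4, Ccl9, Ackr1 and Ccl6 followed between 2.01 and 2.33, also within their spread. In gel muscle the order was Ccl6 (16.9 ± 12.9), Ccl9 (15.7 ± 12.6), Cxcl14 (14.4 ± 11.4), Ccl27a (12.4 ± 2.20), Ccl8 (10.7 ± 6.83) and Cxcl12 (10.4 ± 3.70). The spread between gel libraries was larger than the gap between any 2 neighbours in this order.

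Genes that work with chemokine receptors were taken from a list of 27 signalling genes, of which 26 were tested between gel and PBS. Counts of called genes in this and the other lists stand beside 16.6% of all genes higher and 13.2% lower. Of the 26 signalling genes, 19 were higher and 1, the kinase gene Jak2 (named after its value was seen), was lower. Their median log2 fold change was 1.33 beside 0.04 for all genes. Was, which encodes an actin regulator of haematopoietic cells, rose by 2.43 ± 0.46 (adjusted p = 0.00279), the kinase gene Fgr by 4.35 ± 0.78 (0.00296), the exchange factor gene Vav1 by 4.48 ± 0.84 (0.00355) and the phospholipase gene Plcb2 by 3.30 ± 0.67 (0.0039). The last 3 calls were lost in limma voom (0.0704, 0.0862 and 0.0774). Of 14 genes known to induce chemokines, 10 were tested and 7 were higher, with a median of 1.04. Irf7, an interferon regulator, rose by 3.09 ± 0.64 (adjusted p = 0.00637), the adaptor gene Myd88 by 1.01 ± 0.28 (0.0138, and 0.0643 without gel library 4) and Tlr2 by 1.38 ± 0.42 (0.0224). Tlr2 did not pass when only the 2 groups were fitted (0.0549), nor when gel library 2 (0.0527), gel library 4 (0.0981), PBS library 2 (0.0657) or PBS library 3 (0.065) was left out. Il1b was among the called genes, at 0.854, 1.04, 0 and 1.24 CPM in gel and with no count in PBS. Tnf was called in PBS over uninjured muscle, where it went from 0.0622 ± 0.0724 to 0.935 ± 0.124 CPM (SD, n = 4), a log2 fold change of 3.78 ± 0.76 (adjusted p = 0.00893, and 0.0522 in limma voom). Of 10 genes outside the symbol rule, listed as relatives of chemokines by family, function or name, 9 were tested and 3 were higher in gel than PBS. Cmtm7 rose by 1.11 ± 0.21 and Cmtm3 by 2.29 ± 0.46 (adjusted p = 0.00285 and 0.00514), and Pf4, the CXC ligand of platelets and some macrophages, by 3.35 ± 0.82 (0.0128, and 0.0596 in limma voom).

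Monocyte and macrophage markers moved with these results, and all 12 were called higher in gel than PBS. Their summed level was 961 to 1740 CPM in gel libraries 1, 2 and 4, 98.2 CPM in gel library 3, 28.9 to 59.8 CPM in PBS and 40.7 to 80.0 CPM in uninjured libraries. Of 9 neutrophil markers 1 was tested, the cytokine receptor gene Csf3r, which was higher in gel (adjusted p = 0.00461). The list summed to 18.4 to 23.8 CPM in gel libraries 1, 2 and 4, nearly all of it Csf3r, 0.977 CPM in gel library 3 and at most 1.97 CPM in PBS. The defining neutrophil gene Ly6g had no count in any library, and S100a8 and S100a9 had means of 0.450 and 0.235 CPM in gel. T and NK cell markers summed to 13.0 to 14.3 CPM in gel libraries 1, 2 and 4 and 1.10 CPM in gel library 3, with none tested. Most of this sum was Cd4, at 8.2, 7.66 and 7.21 CPM in gel libraries 1, 2 and 4, and Nkg7, at 3.19, 3.22 and 2.55 CPM. Cd3d and Cd3e had means of 0.109 and 0.113 CPM in gel. Of the other lists, dendritic cell markers had 2 of 4 higher in gel than PBS, B cell and eosinophil or mast cell markers 0 of 4 each, endothelial markers 0 of 8 and lymphatic endothelial markers 1 of 5. Fibro-adipogenic progenitor markers had 3 of 7 higher, and myofibre markers 1 of 8 higher and 3 lower. Of all genes tested, 16.6% were higher and 13.2% lower. The part of these cells in the chemokine results was not tested.

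**Figure D5:**
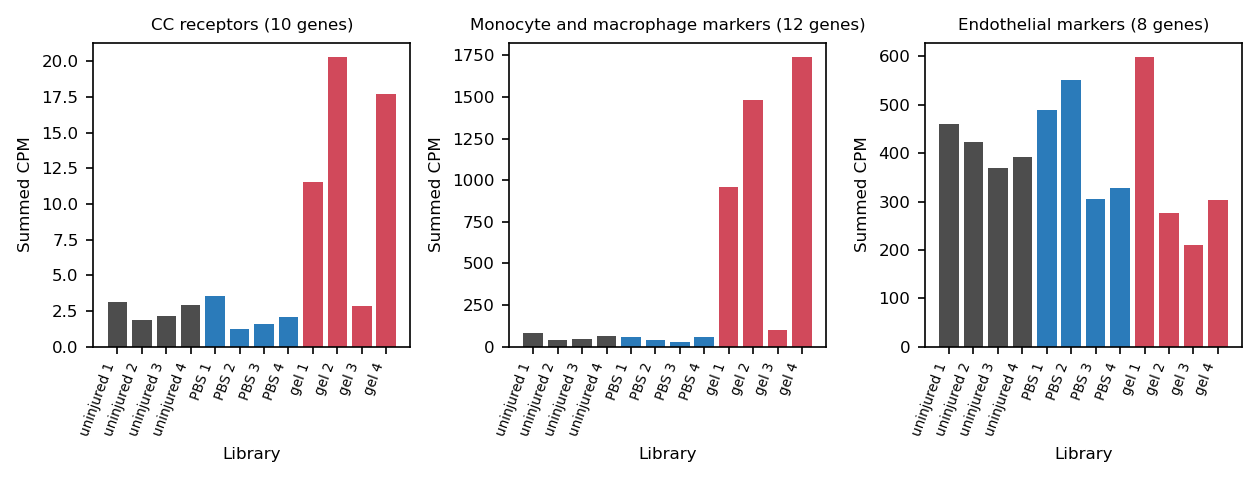
Summed CPM in each of the 12 libraries for 10 CC receptor genes, 12 monocyte and macrophage markers and 8 endothelial markers. In the first 2 panels gel libraries 1, 2 and 4 are high. Gel library 3 lies within the PBS range in the receptor panel and above it, at 98.2 CPM, in the macrophage panel. Endothelial markers range from 211 to 599 CPM in gel muscle.

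The 19 symbols below the minimum had at most 32 counts over all 12 libraries. 10 of them had no count: Ccl19, Ccl20, Ccl21a, Ccl21c, Ccl21d, Ccl26, Ccl27b, Ccr8, Cxcl15 and Cxcr1. Ccr4, the receptor of CCL22, had 23 counts in gel, 21 of them in 1 library, 2 in uninjured and 0 in PBS libraries. Cxcl13, a B cell attractant, had 32 counts in all. The copies of Ccl21, Ccl27 and Ccl19 are nearly identical in sequence, so their reads could not be assigned with certainty.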

How the data were processed

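RNA was sequenced from 12 tibialis anterior samples, 4 per group. The deposited files hold whole-number counts per gene, which the authors made; per the submitters' processing notes the tools named are STAR and edgeR and the build is mm39. The counting program, annotation and strand setting are not stated in any source read here. Counts were compared with edgeR 4.0.16 in R 4.3.3 (TMM scaling, robust quasi-likelihood test, Benjamini-Hochberg adjustment over all genes of a fit, threshold 0.05), on all 12 libraries with 9 residual degrees of freedom. filterByExpr kept 13499 genes; the inclusive fit kept 15733 with at least 5 counts in 2 libraries. CPM are counts scaled by the library total times its TMM factor. SE of log2 fold changes were derived from the test statistic. The test was run on simulated data first. The labels do not say how the animals were raised or sampled, so p-values measure the spread between these libraries. Exact intervals at 95%, on halved counts, cover counting error only.

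Gel and PBS libraries of one number carry one animal number in the deposited names, so they pair; their deviations from the group means correlated at 0.143, -0.0559, 0.311 and 0.0797. Alternatives were DESeq2 1.42.0 (size factors and Wald test), limma 3.58.1 voom, other filters, the 2 groups alone, a replicate block and leaving out each library. Halved counts, and all alternatives of the inclusive fit, were added after seeing the data. Values per library are given for called members, the 8 with the highest mean CPM and receptors with a called ligand or a call, and up to 4 genes for each other list by smallest p. The members and lists of genes (roles, relatives, signalling, inducers and cell types) were chosen with earlier results of these data known. The values of 1 member, which is counted among the 41, are not reported here.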

Additional observations from a re-analysis of the deposited data

Results flagged for a closer look

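Dixon's test on log2 CPM flags a library by chance in about 1 of 20 independent groups. The groups here share the same 12 libraries, so that rate cannot be set against their number. Among 65 groups of 4 libraries with at least 1 library at 1 CPM, 9 had a library far from its 3 fellows. Gel library 3 was the distant one in 8 of these, always low. It was at 0 CPM for Ccl3 (the others 4.33 to 7.28), at 0.244 CPM for Ccl8 (6.84 to 7.63) and at 0 CPM for Ccr7 (2.16 to 2.40). It was at 0.488 CPM for Cx3cr1 (2.28 to 3.03), 40.0 CPM for Cxcl12 (95.7 to 106), 2.99 CPM for Cxcl16 (15.5 to 20.7) and 3.42 CPM for Cxcl9 (10.1 to 12.1). Its monocyte and macrophage markers summed to 98.2 CPM beside 961 to 1740 CPM in the other gel libraries, and their part in these values was not tested. Uninjured library 3 was at 2.70 CPM for Cxcr4, where the others lay at 4.66 to 4.81 CPM.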

How the results depend on the processing

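Of 23 members, 10 were higher in gel than PBS in edgeR. This count was 18 with no filter on low counts and 18 with the members' own minimum as the filter, which test more members, and 7 to 12 with 1 library left out. The count lower was 0, and 0 to 1 with 1 library left out. Higher in PBS than uninjured muscle were 0, but 1 in DESeq2 and 1 with the 2 groups alone, and 0 to 0 with 1 library left out. Lower there was 1, but 2 with the 2 groups alone and 0 to 2 with 1 library left out. Higher in gel than uninjured muscle were 11, but 6 in limma voom, 18 with no filter, 20 with the members' minimum, and 5 (without gel library 4) to 12 with 1 library left out; without uninjured library 3 it was 6. Lower there was 1, and 0 to 2 with 1 library left out.

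With the replicate block, the pairing by animal, 11 members were higher and 1 (Cxcl14) lower in gel than PBS. Against uninjured muscle the block shares only a number: it gave 1 higher and 3 lower in PBS, and 2 lower in gel. In gel over PBS, Ccl11 ranged from -0.4 to 0.05 (without PBS library 1) and Cxcl12 from -0.00488 (without PBS library 4) to 0.37 with 1 library left out, and neither reversal passed the test. Of the other single-gene values, 1065 kept direction and side of the threshold, 103 no longer passed and 32 newly passed. The cause was not tested. Members outside the gel group often had under 10 counts, which limits their folds.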
